A study of Mus musculus with 15 samples.

Results

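The 10 genes described here encode alarmin cytokines of the skin surface: Tslp, the IL-1 family genes Il33, Il18, Il1a, Il1b, Il1rn, Il36a, Il36g and Il36rn, and Il6. They were chosen by symbol from the 24027 symbols shared by 4 tables of differential expression, in which all 10 were found. The tables list Il36a, Il36g and Il36rn under their older symbols Il1f6, Il1f9 and Il1f5. The skin came from female SKH1 mice, a hairless strain used to study skin tumours caused by ultraviolet light. Mice aged 6 to 8 weeks received 500 J/m2 of ultraviolet B on 5 days a week for 10 weeks, which produces actinic keratoses, the precursors of squamous cell carcinoma. Mice of the control arm received 0.25 g of a placebo cream, and mice of the treatment arm 0.25 g of a cream with GZ21T, on 5 days a week. Placebo mice gave 4 groups of 3 libraries: lesions, the perilesional skin around them, irradiated skin without lesions (non-lesional) and skin not exposed to ultraviolet light (non-UV). GZ21T mice gave 1 group of 3 libraries, from lesions. All 5 groups thus share strain, sex and the amount and schedule of cream, while only the GZ21T group received GZ21T. No group of untreated mice entered the comparisons. The file headers call the unexposed skin back skin, so body site and ultraviolet exposure cannot be told apart in any comparison with it.

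Alarmins are cytokines that barrier cells make or release when they are stressed or damaged. TSLP acts through a receptor made of CRLF2 and the IL-7 receptor alpha chain and promotes type 2 immunity. IL-1, IL-33, IL-18 and IL-36 each bind a receptor of the IL-1 receptor family that signals through MyD88 to NF-kB, and the antagonists IL-1RA, encoded by Il1rn, and IL-36RA, encoded by Il36rn, occupy the receptors without signalling. IL-1 beta and IL-18 are made as precursors that caspase-1 cuts, so their mRNA need not follow their activity.

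The deposited tables hold a log2 fold change, its Wald statistic and p-values for each gene, and no value per library. Depth per library is therefore unknown, and the spread between libraries is given as the standard error (SE) of a fold change, which is the fold change over the Wald statistic. The labels give the placebo libraries of all 4 sites the same numbers, 1 to 3, and whether the authors' model used these numbers is not known here. Nothing in the labels states that the 3 libraries of a group are separate animals, and the p-values rest on a spread between libraries that may be technical only. Adjusted p-values are those of DESeq2's Wald test with Benjamini-Hochberg adjustment over all genes tested, and a gene was called at an adjusted p under 0.05. Of the 10 alarmin genes, 8 have an adjusted p in every deposited table. Il6 has one in none of them, and Il1b lacks one in the comparison of GZ21T with placebo lesions. For the other 9 genes the SE of a fold change ran from 0.23 for Il1rn to 0.92 for Tslp in non-lesional over non-UV skin, where the median over all genes tested was 0.32. As a check of the tissue, 13 of 14 keratinocyte markers were found in the tables and all 13 have an adjusted p in every table.

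Of the 10 genes 6 lie on chromosome 2, in 2 groups. In GRCm38 the first group holds Il36g (24186476 to 24193568), Il36a (24215418 to 24225702), Il36rn (24276954 to 24283426) and Il1rn (24336853 to 24351494), all on the plus strand. Il1a (129299610 to 129309972) and Il1b (129364570 to 129371139) form the second, on the minus strand. Il33 on chromosome 19 (29925114 to 29960718, plus strand), Il18 on chromosome 9 (50554827 to 50581840, plus strand) and Il6 on chromosome 5 (30013114 to 30019981, plus strand). All are annotated as protein coding.

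Sequences of 250 bases before the first RefSeq start of GRCm38.p6 are shown for 4 chromosome 2 genes called in lesions over non-UV skin, since 3 of them were higher there and Il1rn was lower. They read 5′ to 3′ on the gene's strand. Capitals mark matches on either strand to an AP-1 motif (TGANTCA), a STAT motif (TTCNNNGAA), a TATA box (TATAAA) or the NF-kB consensus.
Il1a (chr2:129309973-129310222, minus strand): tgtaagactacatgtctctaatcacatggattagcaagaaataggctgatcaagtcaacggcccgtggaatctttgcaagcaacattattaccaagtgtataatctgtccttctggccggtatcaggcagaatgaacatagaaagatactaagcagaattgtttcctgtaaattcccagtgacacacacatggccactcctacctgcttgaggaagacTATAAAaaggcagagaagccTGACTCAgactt
Il1b (chr2:129371140-129371389, minus strand): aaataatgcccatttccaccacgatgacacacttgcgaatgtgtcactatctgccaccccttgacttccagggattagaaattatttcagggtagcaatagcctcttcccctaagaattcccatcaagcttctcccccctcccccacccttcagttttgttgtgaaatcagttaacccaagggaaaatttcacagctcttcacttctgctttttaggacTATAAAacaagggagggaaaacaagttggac
Il36g (chr2:24186226-24186475, plus strand): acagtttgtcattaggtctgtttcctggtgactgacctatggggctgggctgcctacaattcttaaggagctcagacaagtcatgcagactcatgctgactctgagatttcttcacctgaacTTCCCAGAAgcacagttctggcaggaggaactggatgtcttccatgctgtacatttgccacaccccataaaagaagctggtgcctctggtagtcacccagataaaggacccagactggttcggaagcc
Il1rn (chr2:24336610-24336859, plus strand): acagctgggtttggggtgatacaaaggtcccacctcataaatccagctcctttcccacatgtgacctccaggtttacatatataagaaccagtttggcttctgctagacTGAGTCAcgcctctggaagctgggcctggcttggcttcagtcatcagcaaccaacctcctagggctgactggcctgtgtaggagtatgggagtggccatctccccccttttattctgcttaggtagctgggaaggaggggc
The Il1a and Il1b windows both hold a TATA box close to the start, at bases -32 to -27 and -31 to -26. Il1a also holds the AP-1 match TGACTCA at -12 to -6, and Il1rn holds TGAGTCA at -141 to -135. Il36g holds the STAT match TTCCCAGAA at -128 to -120. No NF-kB match lies in these 4 windows. Among 32841 windows of the same length in the RefSeq table, 6.75% hold the AP-1 motif, 7.02% the STAT motif, 12.4% the TATA box and 3.9% the NF-kB consensus, so single matches of this kind are common. Of the 10 genes 8 have windows in that table.

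Tslp (GRCm38 chromosome 18, 32815383 to 32819797, plus strand) had the largest changes of the 10 genes and stood far higher in placebo lesions than in the other groups. Relative to non-UV skin its log2 level was 0.02 ± 0.92 (SE) in non-lesional skin and 4.71 ± 0.90 in lesions, by the authors' deposited table. It was 0.71 in perilesional skin and 0.76 in GZ21T lesions, sums of deposited fold changes whose SE can be bounded but not solved, at no more than 1.26 in each case. The lowest 4 groups therefore lay within 0.76 of each other, in steps smaller than their SEs, and placebo lesions stood 3.95 above the next group. By the authors' deposited table Tslp was 26.2-fold higher in lesions than in non-UV skin (adjusted p = 1.8e-05). Lesional over perilesional skin, which no table holds, was derived from 3 tables, and there Tslp was higher by a log2 fold change of 4.0 ± 0.88 (adjusted p = 0.0041), or 16.1-fold. GZ21T lesions were compared with placebo lesions to ask what the cream changes, and in the authors' deposited table Tslp fell by 3.95 ± 0.89 (adjusted p = 0.0055), a 15.5-fold difference. By Wald statistic it ranked 4 from the top of all 16812 genes tested in lesional over perilesional skin, and 10 from the bottom of all 10899 tested under GZ21T. Between perilesional and non-lesional skin the authors' deposited table gives 0.68 ± 0.90 (adjusted p = 0.93), with a 95% interval from -1.08 to 2.45.

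**Figure D1:**
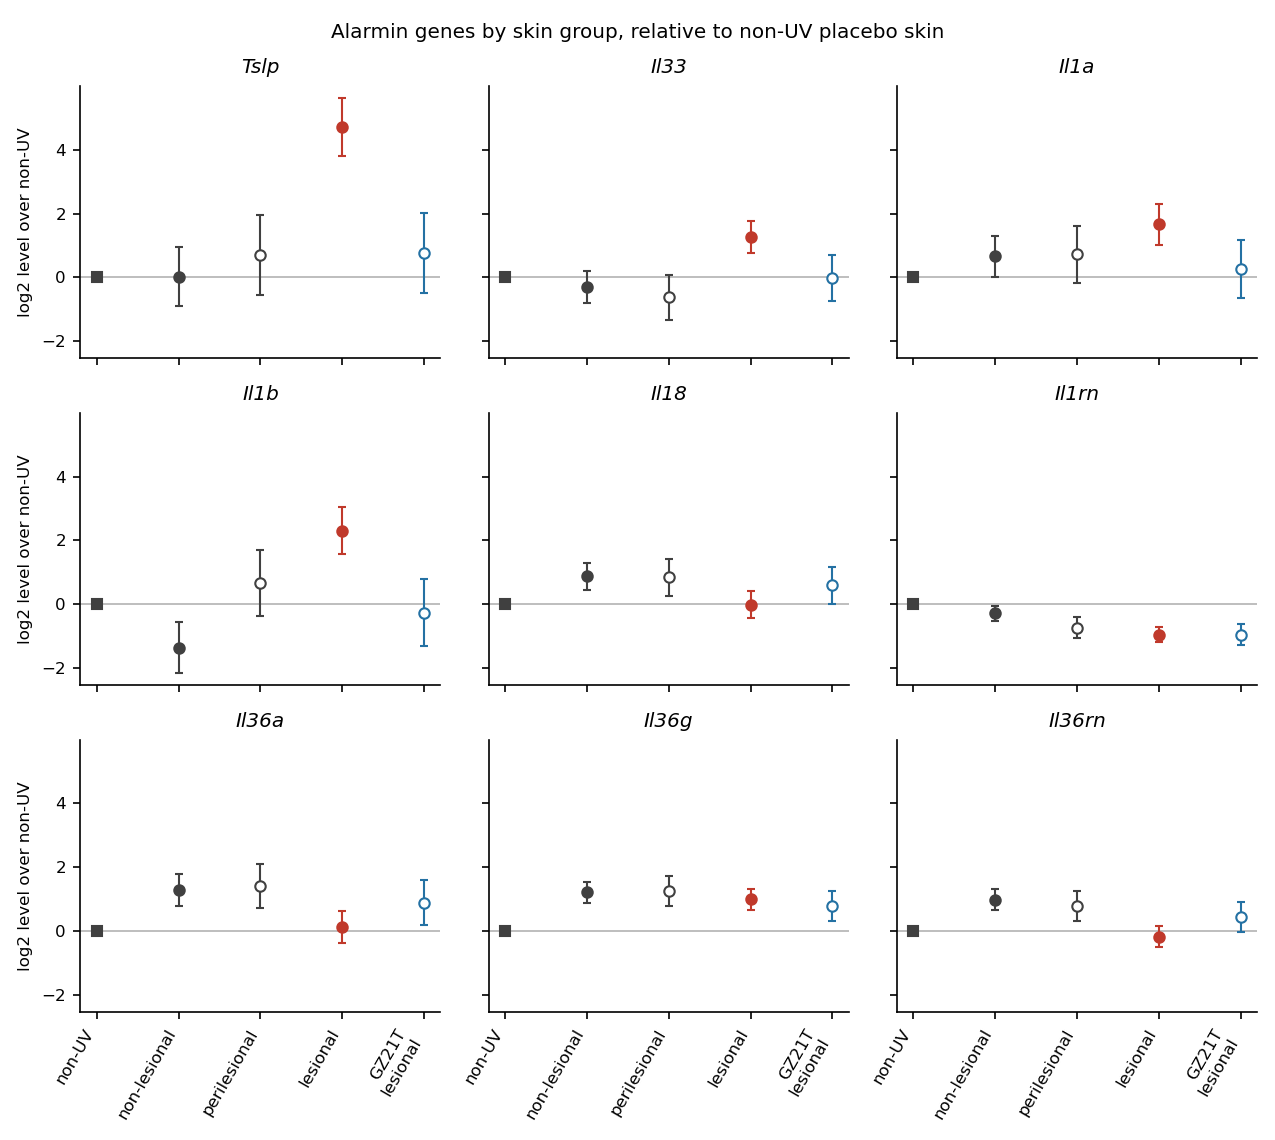
Log2 level of 9 alarmin genes in each skin group relative to non-UV placebo skin (square, set to 0); bars are the SE of the difference from non-UV skin, exact for filled points and the largest value the deposited SEs allow for open points. Tslp stands at 4.71 in placebo lesions and between 0 and 0.76 in the other groups, while Il36a, Il36rn and Il18 have lower values in placebo lesions (0.12, -0.18 and -0.02) than in non-lesional skin (1.30, 0.98 and 0.87), a pair with no test.

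The 5 genes whose levels across the groups lay nearest to those of Tslp, by Euclidean distance over 4 log2 fold changes against non-UV skin among 15200 genes, were Gja5 (distance 0.30), Sprr2f (0.95), Car9 (1.22), Sprr2e (1.28) and Actg2 (1.40). Gja5 encodes a connexin of arterial endothelium, Car9 a carbonic anhydrase induced by low oxygen, Sprr2e and Sprr2f proteins of the cornified envelope, and Actg2 a smooth muscle actin. In the authors' deposited table of lesional over non-UV skin, Car9 (3.59, adjusted p = 0.00042), Sprr2f (5.19, adjusted p = 0.029) and Sprr2e (4.63, adjusted p = 0.036) passed the threshold. Gja5 (4.94, adjusted p = 0.29) and Actg2 (3.68, adjusted p = 0.067) did not pass it in the authors' deposited table. The likeness is over 5 groups that share 1 reference, and it is a description only.

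Il33, a nuclear cytokine of epithelial, endothelial and stromal cells that is freed when cells are damaged, rose in lesions over the perilesional skin around them. The derived log2 fold change was 1.87 ± 0.50 (adjusted p = 0.042), or 3.66-fold. Placebo lesions also held its highest level over non-UV skin, at 1.26 ± 0.50 in the authors' deposited table, which missed the threshold (adjusted p = 0.061). Perilesional skin was lowest at -0.62, non-lesional skin stood at -0.30 and GZ21T lesions at -0.02. In the authors' deposited table the difference of GZ21T from placebo lesions was -1.27 ± 0.50 (adjusted p = 0.1), with a 95% interval from -2.25 to -0.29. The call in lesional over perilesional skin ended under 3 of 5 alternatives, with adjusted p-values between 0.031 and 0.096 over all of them. Endothelial markers, which belong to a cell type that can make IL-33, had a median of 1.19 in lesional over perilesional skin, with 0 of 6 called and a range from -0.09 to 2.31. Fibroblast markers had a median of 0.14 there, with 0 of 6 called and a range from -0.14 to 0.62. In lesional over non-UV skin 3 of 6 endothelial markers were higher, with a median of 2.76 and a range from 0.40 to 4.04, and the fibroblast median was 0.83 with 0 of 6 called. Among all genes tested 18.3% were called in that comparison (10.2% higher), 0.482% in lesional over perilesional skin and 3.61% under GZ21T. Under GZ21T the 5 endothelial markers with an adjusted p had a median of -0.94 and a range from -0.99 to 0.29, and the 6 fibroblast markers one of -0.35, with 0 called in either list. Endothelial and fibroblast medians thus both had the sign of the Il33 value in these 3 comparisons. In perilesional over non-lesional skin both had the opposite sign, at 0.71 and 1.36 against -0.31 for Il33. In non-lesional over non-UV skin, where Il33 stood at -0.30, the endothelial median was 0.33 and the fibroblast median -0.87. Basal keratinocyte markers had medians of 0.47 in lesional over perilesional skin, -0.15 in lesional over non-UV skin and -0.15 under GZ21T. Suprabasal keratinocyte markers had -0.88, -0.56 and 1.22 in the same order, the opposite sign to Il33 in each. The part of any of these cell types in the Il33 values was not tested.

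Il1a and Il1b, which encode the 2 agonists of the IL-1 receptor, were higher in lesions than in non-UV skin. Il1b, made largely by myeloid cells, was 4.94-fold higher with a log2 fold change of 2.31 ± 0.74 (adjusted p = 0.016) by the authors' deposited table. Il1a, which keratinocytes hold in store, was 3.18-fold higher at 1.67 ± 0.64 (adjusted p = 0.049) there, and this call ended under 3 of 4 alternatives (adjusted p between 0.04 and 0.96 over the 4). For non-lesional over non-UV skin the authors' deposited table gives -1.36 ± 0.79 for Il1b (adjusted p = 0.6) and 0.66 ± 0.65 for Il1a (adjusted p = 0.87). Il1b was thus lowest in non-lesional skin, and its level was 0.67 in perilesional skin and -0.26 in GZ21T lesions. From non-lesional to perilesional skin the authors' deposited table gives Il1b a log2 fold change of 2.03 ± 0.77 (p = 0.0082 by the DESeq2 Wald test, adjusted p = 0.42). Lesional over perilesional skin gave derived values of 1.64 ± 0.72 for Il1b (adjusted p = 0.41) and 0.94 ± 0.62 for Il1a (adjusted p = 0.69), so neither gene passed the test against the skin around the lesion.

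Under GZ21T the Il1b difference was the second largest of the 10 genes, at -2.57 ± 0.74 (5.93-fold lower; p = 0.00055 by the DESeq2 Wald test) by the authors' deposited table, but it carries no adjusted p. By default DESeq2 withholds an adjusted p from genes whose mean count lies under a cutoff chosen for each comparison, and whether that default applied is not given in the sources used here. All genes kept in this comparison, 10899 in number, were among the 14124 kept in non-lesional over non-UV skin, and these were all among the 15201 kept in lesional over non-UV skin. Il1b is 1 of 3225 genes with an adjusted p for non-lesional over non-UV skin and none under GZ21T. When the p-values of all 18800 genes with one were adjusted together, Il1b reached an adjusted p of 0.049, and over the 15201 genes of the lesional table, a set chosen after seeing the data, one of 0.04. Of the 7901 genes that have a p and no adjusted p under GZ21T, 14 have a p as small as that of Il1b or smaller, Il1b included. Il1a stood at -1.41 ± 0.63 (adjusted p = 0.16) by the authors' deposited table of the same comparison.

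Markers of the myeloid cells that make IL-1 beta are given beside these values. Of the 9 neutrophil markers found in the tables, 4 have an adjusted p in lesional over non-UV skin, and 2 of these were higher, Mmp9 and Cxcr2, with a median of 1.06 and a range from 0.22 to 4.60 over the 4. Of 10 macrophage markers 0 were called there, with a median of 0.08 and a range from -1.36 to 0.59. The share of all genes tested that was called was 18.3% there (10.2% higher). It was 3.61% under GZ21T and 0.112% in perilesional over non-lesional skin. Under GZ21T 2 neutrophil markers kept an adjusted p and 0 were called, Mmp9 at -1.97 ± 1.03 and Cxcr2 at 0.30 ± 0.45, by the authors' deposited table. Without an adjusted p, the authors' deposited table gives Csf3r -2.11 ± 1.08 and Mpo -2.46 ± 1.92, the same sign as Il1b. It gives Mmp8 1.16 ± 2.28, Ltf -1.37 ± 4.67 and Retnlg -1.01 ± 5.99. These SEs exceed the size of the values, so no sign is read from them. In GZ21T over placebo lesions the macrophage markers had a median of 0.79 and a range from -0.33 to 1.07, with 9 of 10 positive and 0 called, beside the -2.57 of Il1b. In perilesional over non-lesional skin, where Il1b stood at 2.03, all 10 macrophage markers were positive, with a median of 0.87, and 3 of 4 neutrophil markers were positive, with a median of 1.43 and a range from -0.52 to 3.36; 0 of either list were called. In non-lesional over non-UV skin Il1b stood at -1.36, and 1.66% of all genes tested were called. There 2 of the 3 neutrophil markers with an adjusted p were positive, and Cxcr2 was called higher (1.84 ± 0.50, adjusted p = 0.023). Mmp9 stood at 0.02 ± 1.04, and Csf3r at -3.29 ± 1.14 (adjusted p = 0.13), the sign of Il1b. Without an adjusted p, Mmp8 stood at -3.79 ± 2.40 and Retnlg at 0. Mpo (-1.27 ± 1.79) and Ltf (-3.86 ± 4.61) had SEs above the size of their values. Of the 10 macrophage markers 1 was positive, with a median of -0.77 and 1 called lower. The part of both cell types in the Il1b values was not tested, and in whole skin fewer cells of a type and less RNA per cell cannot be told apart.

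Il1rn, which encodes the secreted and intracellular antagonist of the IL-1 receptor, was lower in lesions over non-UV skin, where both agonist genes were higher. In the authors' deposited table it fell by 0.95 ± 0.23 on the log2 scale in lesions over non-UV skin (adjusted p = 0.001). Its level was -0.28 in non-lesional skin, -0.73 in perilesional skin, -0.95 in lesions and -0.96 in GZ21T lesions, with non-UV skin at the top, and no step between neighbouring groups passed a test. GZ21T and placebo lesions differed by -0.01 ± 0.23 (adjusted p = 0.99; 95% interval from -0.47 to 0.45) by the authors' deposited table, the narrowest interval of the 10 genes, and centring on the median turned this sign to 0.0471. GZ21T lesions against placebo non-lesional skin gave a derived value of -0.67 ± 0.23 for Il1rn (adjusted p = 1; 95% interval from -1.13 to -0.22). In lesions over non-UV skin the agonist and antagonist values were thus 2.31 and 1.67 against -0.95, and under GZ21T -2.57 and -1.41 against -0.01. No test of the difference between genes was made, since it needs values per library.

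The IL-36 genes followed another order. Il36g, the IL-36 agonist most abundant in inflamed epidermis, was the single alarmin gene called in non-lesional over non-UV skin, at 1.21 ± 0.33 or 2.31-fold (adjusted p = 0.025) by the authors' deposited table. With the spread over all genes as the null that call ended (adjusted p = 0.077, and 0.021 to 0.034 under the other alternatives). It was also higher in lesions over non-UV skin, at 1.00 ± 0.33 (adjusted p = 0.022) by the authors' deposited table, and with that null this call ended as well (adjusted p = 0.94, and 0.017 to 0.036 under the other alternatives). Its level was 1.26 in perilesional skin and 0.78 in GZ21T lesions, so all 4 irradiated groups lay within 0.48 of each other. Il36a, a second IL-36 agonist, stood at 1.30 ± 0.50 (adjusted p = 0.22) and the antagonist gene Il36rn at 0.98 ± 0.33 (adjusted p = 0.12) by the authors' deposited table of non-lesional over non-UV skin. In lesions over non-UV skin the authors' deposited table gives Il36a 0.12 ± 0.51 (adjusted p = 0.9) and Il36rn -0.18 ± 0.33 (adjusted p = 0.74). The derived values of lesional over perilesional skin were -1.30 ± 0.48 for Il36a (adjusted p = 0.26) and -0.96 ± 0.33 for Il36rn (adjusted p = 0.19), with 95% intervals that lie below 0 but adjusted p-values above the threshold. Under GZ21T the authors' deposited table gives 0.77 ± 0.49 for Il36a (adjusted p = 0.34) and 0.63 ± 0.33 for Il36rn (adjusted p = 0.23), the opposite sign to Tslp.

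Il18, a precursor that keratinocytes make constitutively, passed no test. The authors' deposited table gives 0.87 ± 0.41 in non-lesional over non-UV skin (adjusted p = 0.43), -0.02 ± 0.42 in lesional over non-UV skin (adjusted p = 0.98) and 0.62 ± 0.41 under GZ21T (adjusted p = 0.37). Lesional over perilesional skin gave a derived -0.87 ± 0.41 (adjusted p = 0.46). Il18, Il36a and Il36rn thus shared an order, with placebo lesions and non-UV skin at the low end and non-lesional and perilesional skin at the high end. Suprabasal keratinocyte markers had the sign of these 3 genes in lesional over perilesional skin, where 0 of 6 were positive, with a median of -0.88. In GZ21T over placebo lesions 6 of 6 were positive, with a median of 1.22 and a range from 0.64 to 1.76. There 3 markers were called higher, against 1.31% of all genes tested. In lesional over non-UV skin the marker median was -0.56, with 1 called higher and 2 lower, against 18.3% of all genes called. Il36a stood at 0.12 there. In perilesional over non-lesional skin the marker median was -0.34, beside 0.11 for Il36a, -0.20 for Il36rn and -0.02 for Il18. The part of keratinocyte differentiation in Il18, Il36a and Il36rn was not tested.

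Il6 could not be measured. It stands at exactly 0 in perilesional over non-lesional skin in the authors' deposited table, which marks genes without reads in those groups, and the SEs of its other deposited fold changes are 5.13 to 5.16. No size is given for it.

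**Figure D2:**
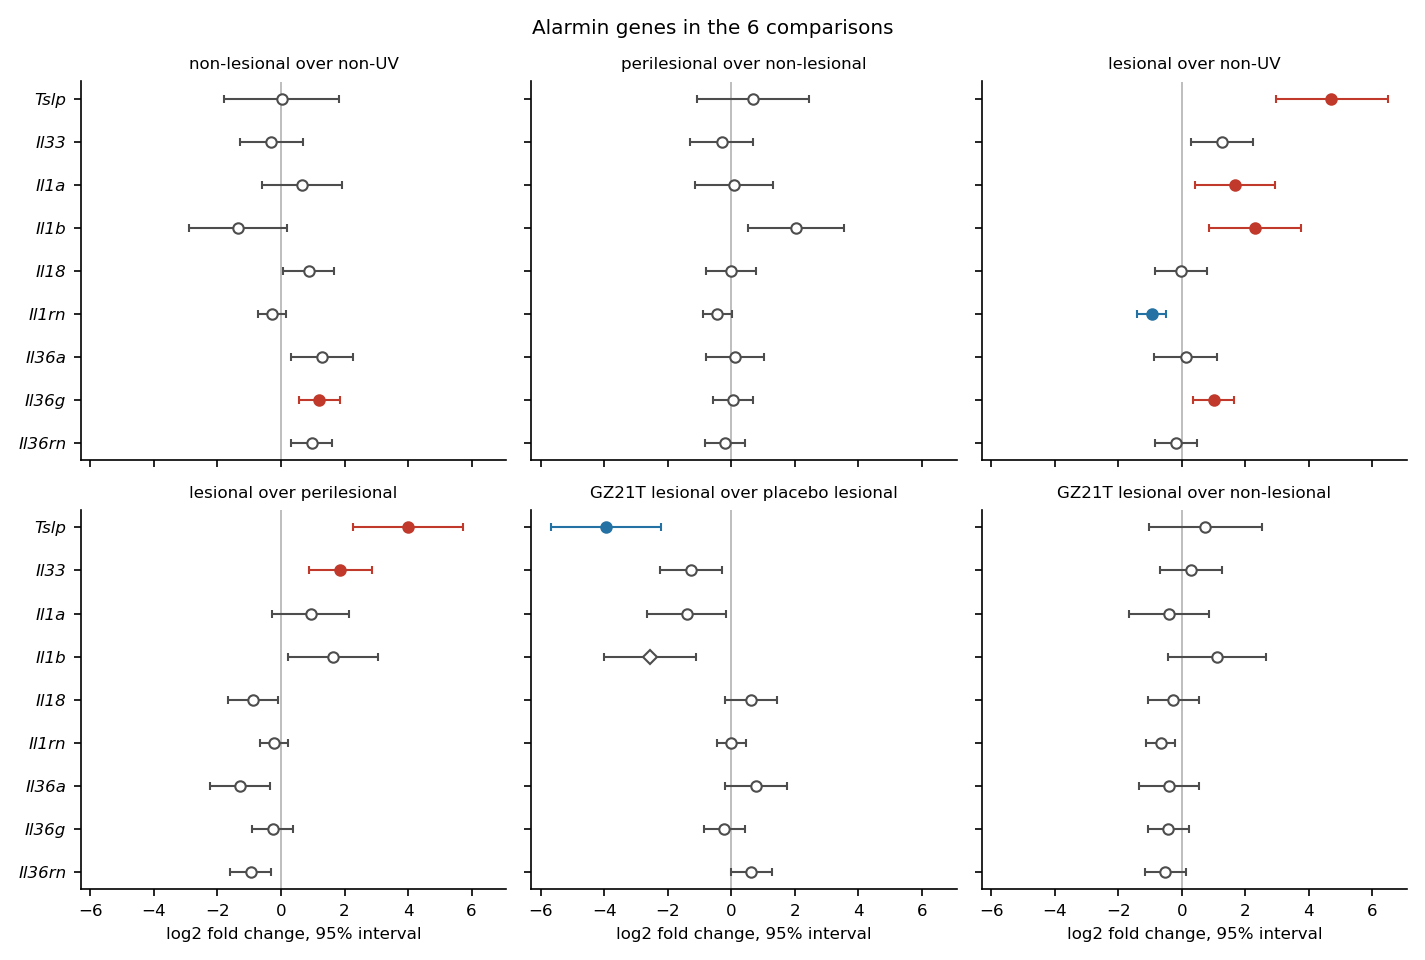
Log2 fold change of 9 alarmin genes in 6 comparisons with 95% intervals; filled points passed an adjusted p of 0.05 (red higher, blue lower), and the diamond marks Il1b, which has no adjusted p. Filled points are Il36g in non-lesional skin, 5 genes in lesional over non-UV skin, Tslp and Il33 in lesional over perilesional skin and Tslp under GZ21T.

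Counted over the comparisons, 1 of 9 alarmin genes with an adjusted p was called in non-lesional over non-UV skin, where 1.66% of all genes tested were (1.13% higher and 0.531% lower). In perilesional over non-lesional skin 0 of 9 were called, against 0.112% of all genes (0.0921% higher and 0.0197% lower); at an unadjusted p under 0.05 the DESeq2 Wald test gave 1 alarmin gene, Il1b, and 1195 of all 18800 genes with a p. In lesional over non-UV skin 5 of 9 were called, 4 higher and 1 lower, against 18.3% of all genes (10.2% higher and 8.17% lower), with a median log2 fold change of 1.00 for the 9 genes and 0.081 for all genes tested. In lesional over perilesional skin 2 of 9 were called, against 0.482%, with medians of -0.22 and 0.049. Under GZ21T 1 of 8 was called, lower, against 3.61% (1.31% higher and 2.29% lower), with medians of -0.11 and -0.057. Centring each comparison on its median turned the balance over all genes, from 1543 higher and 1242 lower to 1244 and 1607 in lesional over non-UV skin, and from 143 and 250 to 201 and 142 under GZ21T. In lesional over perilesional skin it turned 46 higher and 35 lower into 34 and 44. GZ21T lesions compared with placebo non-lesional skin gave 0 called alarmin genes, against 0% of all 16814 genes tested; at an unadjusted p under 0.05 there were 509 of all genes, and Il1rn was the 1 alarmin gene among them. Tslp stood at 0.74 ± 0.91 there, with a 95% interval from -1.05 to 2.52. Where each Wald statistic was first divided by the spread over all genes, which was 1.92 in lesional over non-UV skin and 1.64 under GZ21T, 0 alarmin genes were called in either comparison (Tslp adjusted p = 0.68 and 0.98). In lesional over perilesional skin that spread was 1.06 and Tslp kept an adjusted p between 0.0031 and 0.014 under 5 alternatives, 1 of them added after seeing the data.

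**Figure D3:**
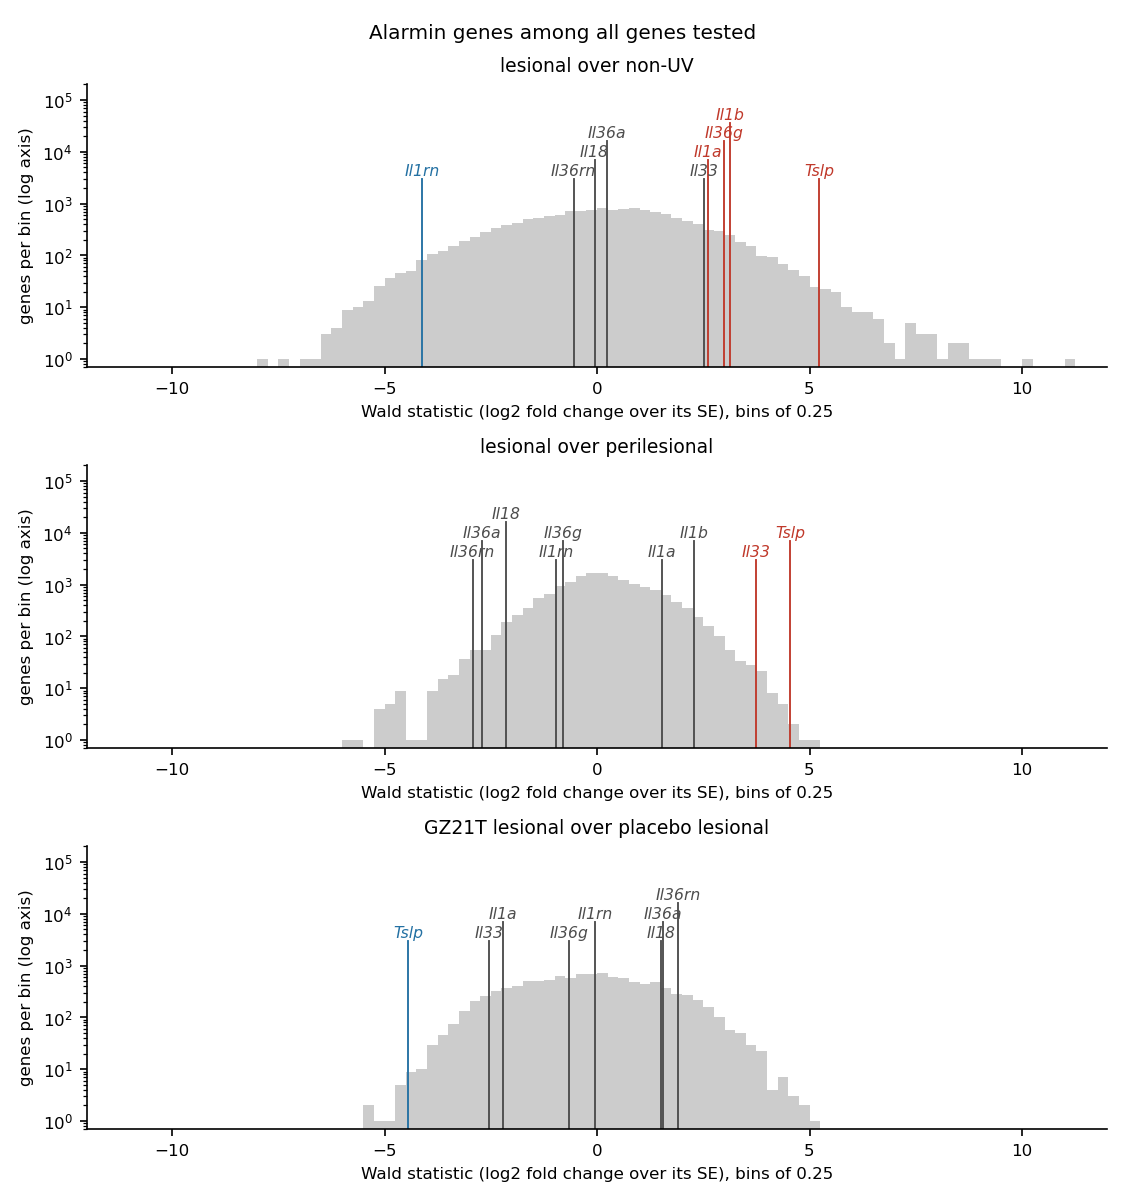
Wald statistics of all genes tested (grey, number of genes per bin on a log axis) in 3 comparisons, with the alarmin genes that have an adjusted p as lines (red called higher, blue called lower, grey not called). Tslp lies in the right tail for lesional over perilesional skin and in the left tail for GZ21T over placebo lesions.

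Of 13 receptor and binding protein genes for these cytokines, 4 were lower and 1 higher in lesional over non-UV skin, with a median of -0.18. This count and those of the lists that follow are to be read beside the 18.3% of all genes called in that comparison and the 3.61% under GZ21T. For lesional over perilesional skin that share is 0.482% (0.274% higher), and for non-lesional over non-UV skin it is 1.66%. In the authors' deposited table the decoy receptor gene Il1r2 fell by 2.41 ± 0.42 (adjusted p = 1.8e-06), the signalling receptor gene Il1r1 by 1.29 ± 0.26 (adjusted p = 4.1e-05) and the IL-6 receptor gene Il6ra by 1.19 ± 0.26 (adjusted p = 0.00017). The IL-36 receptor gene Il1rl2 fell by 1.01 ± 0.26 (adjusted p = 0.0025) by the authors' deposited table, while Il18rap, the accessory chain of the IL-18 receptor, rose by 2.01 ± 0.47 (adjusted p = 0.00069). Crlf2, the specific chain of the TSLP receptor, stood at 0.86 ± 0.37 in lesional over non-UV skin (adjusted p = 0.089) and at -0.74 ± 0.37 under GZ21T (adjusted p = 0.21) by the authors' deposited table. The IL-33 receptor gene Il1rl1 stood at 2.03 ± 1.07 in lesions in the authors' deposited table (adjusted p = 0.17). Il1rl2, Crlf2 and Il1rl1 are named as receptors of the alarmins described and were chosen after their values were seen. Under GZ21T 0 of the 10 receptor genes with an adjusted p were called, and in lesional over perilesional skin 0 of 13.

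Of 13 genes of cytokine processing with an adjusted p, 3 were higher and 3 lower in lesional over non-UV skin. In the authors' deposited table the DNA sensor Aim2 rose by 1.82 ± 0.56 (adjusted p = 0.012) and the calpain gene Capn2, whose family cuts the IL-1 alpha precursor, by 1.46 ± 0.35 (adjusted p = 0.0007). The inflammasome sensor Nlrp1a fell by 3.58 ± 0.81 (adjusted p = 0.00039) and Casp4, an inflammatory caspase, by 0.79 ± 0.25 (adjusted p = 0.015) by the authors' deposited table. Among 28 signalling genes 3 were higher and 2 lower, a share close to the 18.3% called over all genes. For these the authors' deposited table gives the adaptor Myd88 1.15 ± 0.31 (adjusted p = 0.0032) and Tab2, which links TRAF6 to the kinase TAK1, -0.59 ± 0.17 (adjusted p = 0.0069). Stat3 was higher at 0.55 ± 0.13 (adjusted p = 0.00073) and its feedback inhibitor Socs3 at 0.99 ± 0.35 (adjusted p = 0.033) by the authors' deposited table. Stat3 was already higher in non-lesional over non-UV skin, at 0.63 ± 0.13 (adjusted p = 0.00038). Its derived value in lesional over perilesional skin was 0.06 ± 0.13 (adjusted p = 0.99). Irak3, the other signalling gene called lower in lesional over non-UV skin, stood at -1.14 ± 0.41 (adjusted p = 0.033). It is named outside the rule for named genes.

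Genes that IL-1 family cytokines induce were higher for 7 of 21 with an adjusted p in lesional over non-UV skin and lower for 0, with a median of 2.12. In the authors' deposited table the collagenase gene Mmp13 rose by 4.57 ± 1.17 (adjusted p = 0.0019), the calprotectin subunit gene S100a9 by 4.62 ± 1.23 (adjusted p = 0.0029) and Ptgs2, which encodes the inducible cyclooxygenase, by 3.66 ± 1.00 (adjusted p = 0.0042). In lesional over perilesional skin 3 of 23 were higher and 0 lower, Ptgs2 with a derived value of 5.24 ± 1.01 (adjusted p = 0.00088), Mmp3 and Mmp13. Of the 25 listed genes 7 kept an adjusted p under GZ21T, and 1 of these was called lower, Ptgs2 at -3.53 ± 1.00 (adjusted p = 0.029) by the authors' deposited table. The 7 had a median of -2.66 and a range from -3.53 to 0.18, with 1 of them positive. Type 2 genes, the partners of TSLP and IL-33, were higher for 6 of 14 with an adjusted p and lower for 2 in lesional over non-UV skin, with a median of 2.25. Of the 18 listed, Il4 (-2.56 ± 5.93), Il5 (exactly 0), Il13 (1.72 ± 2.50) and Ccl17 (0.88 ± 2.37) had no adjusted p there. The counts and the median thus leave out the cytokine genes Il4, Il5 and Il13. The authors' deposited table gives the chitinase-like Chil4 9.0 ± 1.5 (adjusted p = 5.6e-07), the receptor chain Il4ra 2.53 ± 0.42 (adjusted p = 6e-07), Arg1 3.05 ± 0.72 (adjusted p = 0.00066) and Areg, an epidermal growth factor receptor ligand, 1.98 ± 0.56 (adjusted p = 0.0056). The 2 called lower were Retnla at -3.56 ± 1.19 (adjusted p = 0.022) and Gata3 at -1.03 ± 0.32 (adjusted p = 0.013) by the authors' deposited table. These 2 are named outside the rule for named genes. Chil4 was already higher in non-lesional over non-UV skin, at 8.59 (adjusted p = 8.3e-06) by the authors' deposited table. Tslp stood at 0.02 there. The derived Chil4 value in lesional over perilesional skin was -1.06 ± 0.94 (adjusted p = 0.83). Under GZ21T 0 of 8 type 2 genes and in lesional over perilesional skin 0 of 17 were called by the same tests.

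Of 9 known regulators of Tslp with an adjusted p, 2 were lower in lesional over non-UV skin, a count too small to set apart from the 18.3% of all genes called there. For these the authors' deposited table gives Notch1, whose loss in keratinocytes is known to raise Tslp, -1.16 ± 0.32 (adjusted p = 0.0046), and F2rl1, a protease receptor that induces Tslp, -0.94 ± 0.27 (adjusted p = 0.0061). Under GZ21T the kallikrein gene Klk5 was higher at 1.14 ± 0.34 (adjusted p = 0.041) by the authors' deposited table. Of the other ligands listed, 2 of 4 with an adjusted p were higher in non-lesional over non-UV skin, against 1.13% of all genes. By the authors' deposited table Lif rose by 1.99 ± 0.40 there (adjusted p = 0.00027). Il1f8, the gene of the IL-36 beta agonist, rose by 1.93 ± 0.44 (adjusted p = 0.0023). In lesional over non-UV skin Lif stood at 1.77 ± 0.40 (adjusted p = 0.00041) and Il1f8 at 0.82 ± 0.45 (adjusted p = 0.2). Il1f10, which lies between Il36rn and Il1rn, stood at -2.99 ± 1.02 in lesions over non-UV skin (adjusted p = 0.025) by the authors' deposited table.

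**Figure D4:**
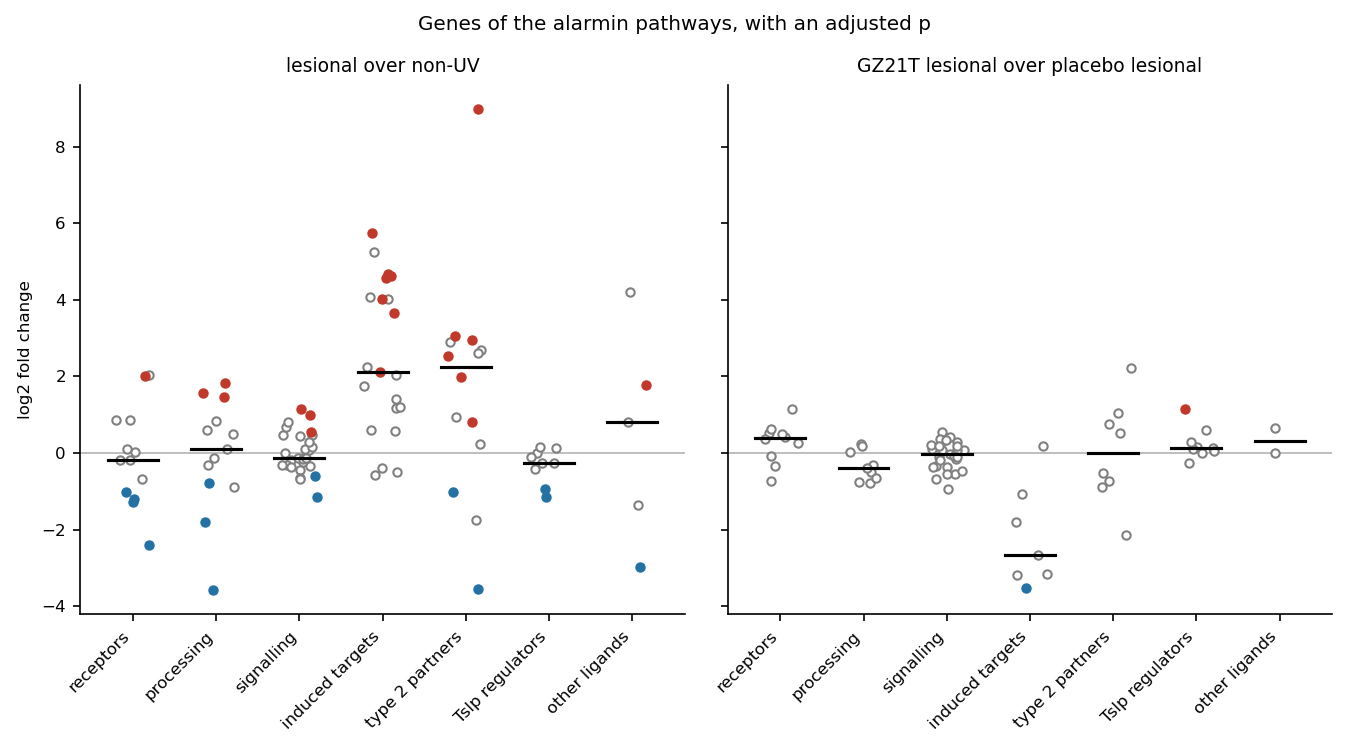
Log2 fold changes of the listed pathway genes that have an adjusted p, in lesional over non-UV skin and GZ21T over placebo lesions; each point is a gene, filled red or blue where called higher or lower, and black lines are medians. Induced targets have a median of 2.12 in lesions, and receptors have 4 genes called lower.

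Some of these genes overlap others on the opposite strand, and whether reads were counted by strand is not given in the sources used here. Il1bos, annotated as antisense to Il1b and overlapping it by 1243 bases, was lower in lesions over non-UV skin by the authors' deposited table, at -3.45 ± 1.07 (adjusted p = 0.013), against 2.31 for Il1b. Gm14023 overlaps Il1a by 8217 bases and stood at -0.55 ± 0.67 (adjusted p = 0.6) by the authors' deposited table of the same comparison. The non-coding gene 4930455D15Rik covers all 4415 bases of Tslp on the opposite strand and has no adjusted p in any deposited table, with an SE of 6.01 in lesional over non-UV skin. Bco2, at 2.39 ± 0.81 (adjusted p = 0.023) by the authors' deposited table of lesional over non-UV skin, shares 355 bases with Il18. These 4 genes were looked up for their position, outside the rule for named genes.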

How the data were processed

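Per the labels' protocols, TruSeq Stranded Total RNA libraries were built from RNA purified on RNeasy columns. The submitters' processing notes name Trim Galore, DESeq2 and the build GRCm38 (mm10). Not given in the sources used here are the aligner, counter, annotation, versions and model formula. The authors deposited 4 tables, each with a log2 fold change, a Wald statistic (a score, the fold change over its SE), a p-value and an adjusted p-value, per the file headers. No table holds counts, so depth is unknown and 0 columns of values per library were left aside. The members and lists were chosen with earlier results of these data known.

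Symbols turned into dates (25) were removed. Each p-value matched a two-sided normal tail of its Wald statistic to within 9.9e-13 in natural log. The table named for perilesional and lesional skin has a header of lesional over back skin and was used as such: of 1423 genes at exactly 0 in non-lesional over back skin 704 are positive and 0 negative in it, while perilesional over non-lesional skin has 1195 genes at 0, of which 271 are negative in it. Back skin is the non-UV group by elimination. The GZ21T table was turned in sign. Lesional over perilesional skin was the lesional over non-UV fold change minus the non-lesional over non-UV and perilesional over non-lesional ones, with the squared SEs added and subtracted along the same chain, which is exact if 1 model with the group alone was fitted to all libraries. GZ21T lesional over non-lesional skin was derived likewise. Derived p-values are two-sided normal tails, adjusted by Benjamini-Hochberg over 16812 and 16814 genes. The step was run on simulated data drawn under the same model with the group alone. That run checks the arithmetic and cannot show whether the authors fitted such a model. Where the 4 SEs leave the variance of a pair open, the largest SE they allow is given and no test. Intervals are 95% normal intervals. Named genes are the 10 members, up to 4 called genes of each list per comparison, and the 5 genes nearest to Tslp. Positions come from GENCODE M21 and promoter windows from RefSeq (GRCm38.p6). Python 3.11.15, pandas 2.3.3 and scipy 1.17.1 were used. The alternatives were another set of genes for the adjustment, the null spread taken from the genes, centring, and a larger SE for derived contrasts.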

Additional observations from a re-analysis of the deposited data

How the results depend on the processing

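Adjustment over all genes with a p gave 2 alarmin genes (Tslp and Il1b) and 209 genes in all under GZ21T, and the genes kept in lesional over non-UV skin, an alternative added after seeing the data, gave 2 and 253; reported values are 1 and 393. When the null spread was estimated over genes, calls fell to 0 of the alarmin genes and 126 genes in non-lesional over non-UV skin (reported 1 and 235), 2 genes in perilesional over non-lesional skin (reported 17), 0 and 14 in lesional over non-UV skin (reported 5 and 2785), and 0 and 0 under GZ21T. That setting gave 1 and 35 in lesional over perilesional skin (reported 2 and 81) and 34 genes in GZ21T lesional over non-lesional skin (reported 0). Centring left 1 alarmin gene in lesional over perilesional skin, and the largest of the 3 deposited SEs left 1 and 48; the remaining gene was Tslp in each case. Il1rn under GZ21T turned from -0.01 to 0.0471 on centring. The other 37 counts stayed within 1.5 times the reported ones. Of single genes 12 calls were lost and 3 gained. Leaving out libraries was not run, since the tables hold no value per library. No paired analysis was possible because the result tables hold no value per library, although the placebo groups share replicate numbers 1 to 3 in the labels; the derived contrasts assume a model without them. For derived contrasts every gene with a p was already in use.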
